A study of Danio rerio with 12 samples.

Results

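The small RNA libraries of whole zebrafish embryos held, beside miRNAs, rows that carried only a zebrafish Ensembl transcript identifier. The rows described here are the 218 of 1797 Ensembl transcript rows that had at least 10 counts in every one of the 12 libraries. The tables held 2496 rows in all, the other 699 being miRNA rows. Counts chose these rows, so their presence in every library and their abundance are descriptions and not results. TL wild-type embryos were sampled at 36 or 60 hours post fertilisation (hpf), after TCDD or after DMSO, with 3 libraries for each of the 4 combinations. TCDD is the dioxin best known as a ligand of the aryl hydrocarbon receptor, and DMSO is the solvent usually given alone as its control. The sources used here do not give the dose, the start and length of the exposure, the embryos per library or the clutches. Nothing says whether libraries of a group came from separate pools of embryos, so p-values measure the spread between libraries, which may be technical.

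Small RNA sequencing is made to capture miRNAs, which Dicer cuts from hairpin precursors and which guide Argonaute proteins to mRNAs. The same size range also holds fragments of longer RNAs, such as ribosomal, transfer, small nuclear, small nucleolar and messenger RNAs, and in zebrafish gonads it holds piRNAs. The share of such fragments in a library depends both on the RNA in the embryos and on how that RNA was handled and size-selected. An Ensembl transcript identifier may stand for any of these kinds, protein-coding or not. The tables did not pair the identifiers with gene names, and 0 of the 1797 were found in the reference tables used here. No name, function, sequence or position is therefore given for any row, and rows other than 4 are called by their rank of mean abundance among the 218.

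The label of these rows as other than miRNA rests on their identifiers. No row met the measure of alike counts with any of the 464 miRNA features, in which copies are counted once, although one came near. The smallest sum over the 12 libraries of the squared difference over the sum was 12.2, against a limit of 12. The miRNA rows left out as copies were not compared. This does not show that no row shares reads with a miRNA row, nor what kind of transcript each is. Markers of tissues that a whole embryo should hold were present: muscle miR-206 was between 14551 and 53930 and epidermal miR-203b between 36373 and 86240 counts per 1000000 miRNA counts (CPM), and of the markers looked at only the erythroid miR-144 was at 0, in 1 library. In bulk samples, fewer cells of a type and less RNA per cell cannot be told apart.

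Libraries held 593568 to 5555181 counts, a 9.36-fold range, and all 3 of the shallowest were at 36 hpf. Every library at 36 hpf but DMSO library 3 had fewer counts than the shallowest at 60 hpf, which held 2688502. Counting error was small at the level of the class, with a 95% Wilson interval at most 0.0933 percentage points wide, which covers counting error only.

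The 218 rows took a larger share of the library at 36 hpf than at 60 hpf in both treatments. All counts are summed over all rows, with every hairpin copy of a miRNA, so shares would be larger with copies counted once. DMSO library 1 at 36 hpf had 846916 counts, beside 648934 miRNA counts with copies once and 45313 Ensembl counts. For DMSO library 1 at 60 hpf these were 4886231, 3738502 and 69604. At 36 hpf after DMSO the 218 rows held 4.90%, 2.18% and 2.03% of all counts in libraries 1, 2 and 3. After TCDD at the same time they held 2.53%, 3.68% and 3.48%. At 60 hpf the shares were 1.29%, 1.48% and 1.22% after DMSO. After TCDD at 60 hpf they were 1.09%, 1.14% and 1.43%. All 6 libraries at 60 hpf were thus below all 6 at 36 hpf, while the TCDD and DMSO libraries overlapped at each time. The means were 3.04% ± 1.61 (SD, n = 3) after DMSO and 3.23% ± 0.617 after TCDD at 36 hpf, and 1.33% ± 0.134 and 1.22% ± 0.182 at 60 hpf. The spread between libraries was wider at 36 hpf, above all after DMSO, where library 1 stood well above both others.

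The same order held relative to miRNA counts, each mature miRNA being counted once. Per 1000 miRNA counts the rows had 63.9, 27.7 and 26.0 counts at 36 hpf after DMSO. After TCDD they had 31.96, 47.9 and 44.9. At 60 hpf the values were 16.8, 19.2 and 16.4 after DMSO, and 14.7, 15.3 and 18.8 after TCDD. Again no library at 60 hpf reached the lowest library at 36 hpf. The means were 39.2 ± 21.4, 41.6 ± 8.49, 17.5 ± 1.54 and 16.3 ± 2.25 in the same order of groups (SD, n = 3 each). A fall of these rows and a rise of miRNAs cannot be told apart from shares, since each library gives relative amounts.

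**Figure D1:**
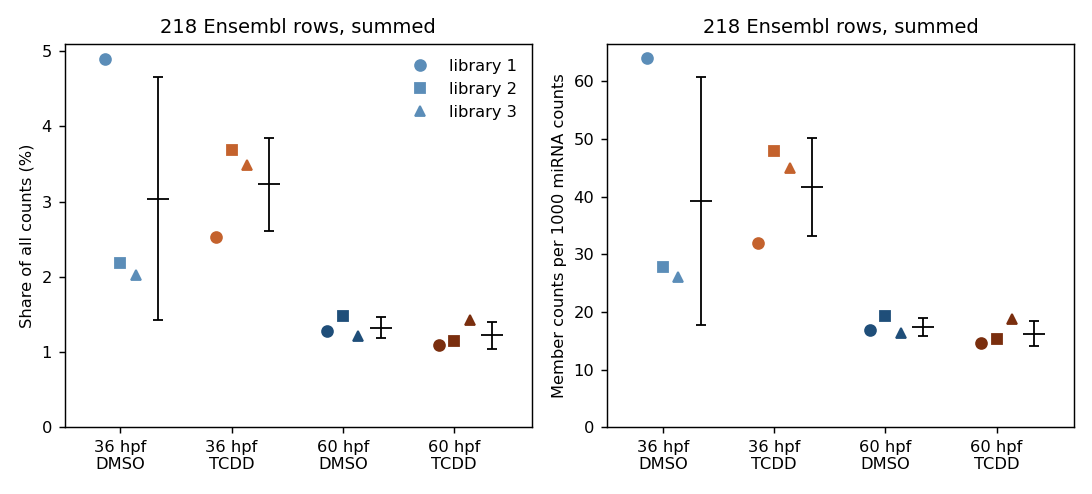
Class level of the 218 Ensembl transcript rows in each of the 12 libraries, as a percentage of all counts and as counts per 1000 miRNA counts, by time and treatment. Points are libraries (circle 1, square 2, triangle 3) and black bars give the mean ± SD of 3. All libraries at 60 hpf lie between 1.09% and 1.48% of all counts, below the lowest at 36 hpf, 2.03%.

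From 36 to 60 hpf the class level relative to miRNA counts was 2.06-fold lower after DMSO, a log2 difference of -1.04 against a pooled SD between libraries of 0.52. After TCDD it was 2.53-fold lower, -1.34 on the log2 scale with a pooled SD of 0.26. As a share of all counts the differences were -1.08 and -1.40 (2.11-fold and 2.63-fold lower). Library 1 at 36 hpf after DMSO decided much of the first value, which was -0.62 relative to miRNA counts and -0.67 as a share of all counts without it. No p is given for the class, because its rows were chosen by their counts.

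All 1797 Ensembl rows together are defined by their identifiers and not by counts, and were put through a permutation test. The 218 rows held 89.0% to 91.8% of their counts, so the test is not independent of them. Since the 218 rows were chosen with earlier results of these data known, this wider class was not fixed beforehand either. Its p is therefore no test of a class named in advance. With times permuted within each treatment, the level of all Ensembl rows was 2.27-fold lower at 60 hpf relative to miRNA counts (log2 -1.18) and 2.34-fold lower as a share of all counts (log2 -1.23). The two-sided exact permutation p was 0.005 for both, the smallest that the 400 arrangements can give, and 0.01 adjusted over the 4 tests of this kind. The level was lower at 60 hpf in 6 of 6 same-numbered pairs. With same-numbered libraries kept as pairs and their signs flipped, the exact p was 0.03125, the smallest possible, and 0.0625 adjusted. Beside the sign-flip tests of TCDD, no lower adjusted value was possible. The sign flips therefore cannot tell whether the pairing matters.

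Depth moved with time. At 36 hpf the 3 deeper libraries had lower shares than the 3 shallower ones, and the smallest and largest of the DMSO libraries, with 846916 and 4564924 counts, had 4.90% and 2.03%. Among the 9 libraries with over 1500000 counts, the 3 at 36 hpf had 2.03% to 2.53% and the 6 at 60 hpf had 1.09% to 1.48%, so the groups did not overlap there either. The class difference between the times within those libraries was -0.62 after DMSO and -0.98 after TCDD relative to miRNA counts, and -0.67 and -1.06 as a share of all counts. These values rest on 2 libraries at 36 hpf after DMSO, those left when library 1 is omitted, and on 1 after TCDD. Depth still moved with time among these 9 libraries. At 36 hpf TCDD library 1 held 1563419 counts, DMSO library 2 1787617 and DMSO library 3 4564924. The shallowest at 60 hpf held 2688502. The part of depth in the difference, within these 9 libraries or over all 12, was not tested.

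**Figure D2:**
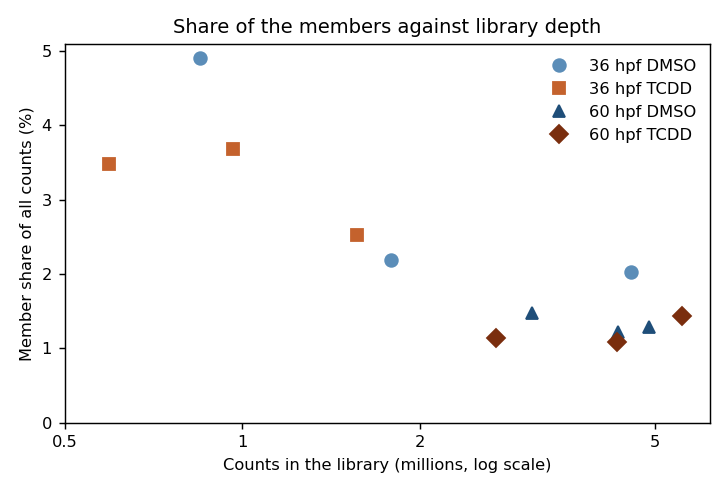
Share of all counts held by the 218 rows against the total counts of each library on a log axis, with time and treatment marked. At 36 hpf the share runs from 4.90% to 2.03%, and at 60 hpf it stays between 1.09% and 1.48%.

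The rule itself asks more of a row at 36 hpf. In the shallowest library, TCDD library 3 at 36 hpf, 10 counts stood for 21.8 CPM, while in the deepest, TCDD library 3 at 60 hpf, they stood for 2.37 CPM. For 90 of the 218 rows the lowest count was in that shallowest library, and 235 rows would qualify if it were ignored. A row high at 36 hpf was therefore more likely to be chosen than one equally high at 60 hpf. Just inside the threshold were 16 rows whose lowest count was 10, with a median mean level of 17.3 CPM (13.9 to 24.4). Just outside were 9 rows whose lowest count was 9, with a median of 17.6 CPM (12.4 to 24.3). Of all Ensembl rows, 448 were listed in every library and 583 in 1 library only.

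Abundance was uneven among the rows. Mean levels over the 12 libraries ran from 14.2 to 3079 CPM with a median of 48.7 and quartiles of 22.7 and 89.4, so that 4 rows were over 1000 CPM and 166 under 100. The 5 most abundant rows held 35.4% ± 0.0444 (SD, n = 3) of the class's counts at 36 hpf after DMSO and 29.1% ± 9.21 after TCDD, then 30.0% ± 4.06 and 23.1% ± 2.80 at 60 hpf. The lower share at 60 hpf did not rest on these 5: without them the rows held 1.96% ± 1.04 and 2.32% ± 0.661 of all counts at 36 hpf after DMSO and TCDD, and 0.926% ± 0.0619 and 0.936% ± 0.116 at 60 hpf.

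The most abundant row, of rank 1, was lower at 60 hpf in every library, on the scale of CPM with TMM factors used for all single rows. It had 8077, 4424 and 3821 CPM at 36 hpf after DMSO and 7277, 3001 and 2823 after TCDD. At 60 hpf it had 1629, 1624 and 2125 after DMSO and 240, 750 and 1155 after TCDD. The groups of the 2 times did not overlap in either treatment, and the TCDD libraries at 60 hpf lay below the DMSO ones. The log2 difference between the times was -1.60 (SE 0.56) after DMSO, with an edgeR adjusted p of 0.0542 that missed the threshold of 0.05, and -2.61 (SE 0.58) after TCDD, with an edgeR adjusted p of 0.00393. Between TCDD and DMSO at 60 hpf it was -1.33 (SE 0.56), with an edgeR adjusted p of 0.538.

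Rank 2 varied most among these. It had 8861, 1406 and 626 CPM at 36 hpf after DMSO and 1280, 8005 and 722 after TCDD, then 43.0, 1710 and 292 and 40.9, 133 and 200 at 60 hpf. Single libraries stood far above the others of their group, and the times overlapped after DMSO. Its log2 difference between the times was -2.41 (SE 1.35) after DMSO, edgeR adjusted p 0.193, and -4.74 (SE 1.499) after TCDD, edgeR adjusted p 0.0196.

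Rank 3 differed less between libraries, relative to miRNA counts, than the other 4 of these rows. It had 1992, 2192 and 2171 CPM at 36 hpf after DMSO, 2024, 2228 and 2148 after TCDD, 1716, 1727 and 2067 at 60 hpf after DMSO, and 1459, 1441 and 1806 after TCDD. On this scale all 3 TCDD libraries at 60 hpf were below all 3 at 36 hpf, while the times overlapped after DMSO. Its log2 differences of -0.21 (SE 0.26) after DMSO and -0.44 (SE 0.26) after TCDD did not pass the edgeR test, with adjusted p of 0.559 and 0.163. Scaled to all counts they were -0.13 and -0.03, with edgeR adjusted p of 0.720 and 0.929.

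Rank 4 fell in both treatments. It had 2120, 1927 and 2672 CPM at 36 hpf after DMSO and 1181, 1931 and 2037 after TCDD. At 60 hpf it had 565, 667 and 434, and 606, 566 and 526. The highest library at 60 hpf was well below the lowest at 36 hpf. The log2 differences were -2.01 (SE 0.33) after DMSO and -1.60 (SE 0.32) after TCDD, with edgeR adjusted p of 0.00175 and 0.00290.

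Rank 5 had 3558, 1146 and 326 CPM at 36 hpf after DMSO and 1255, 1315 and 2376 after TCDD, then 617, 398 and 157, and 68.9, 133 and 128 at 60 hpf. After TCDD the times were far apart, while after DMSO they overlapped. The log2 difference was -3.90 (SE 0.81) after TCDD, edgeR adjusted p 0.00310, and -2.10 (SE 0.75) after DMSO, edgeR adjusted p 0.0585.

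Across the 218 rows, 83 fell and 3 rose from 36 to 60 hpf after DMSO in edgeR's quasi-likelihood test, adjusted over all 838 features tested and scaled to miRNA counts. Over all features 25.5% were called, 18.1% as lower and 7.40% as higher. After TCDD 194 fell and 2 rose, where over all features 53.3% were called, 44.9% as lower and 8.47% as higher. These shares over all features include the 218 rows themselves. The median log2 difference of the rows was -1.21 after DMSO (quartiles -1.99 and -0.75, range -3.01 to 1.58) and -2.01 after TCDD (quartiles -2.51 and -1.55, range -5.41 to 1.95). Over all features the medians were -0.62 and -1.03. Of the rows, 209 and 210 had a negative difference, beside 580 and 593 of all 838 features.

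Ensembl rows that passed the expression filter but were below 10 counts in some library also had medians below 0. Of these 210 rows, 44 (21.0%) fell and 3 rose after DMSO, with a median of -0.98. This was near the 18.1% of all features called lower. After TCDD 131 (62.4%) fell, beside 44.9% of all features, and 3 rose, with a median of -2.03. A row could pass the filter through libraries of 1 group where it was high, so these rows are no separate support for a fall. The miRNA features had medians nearer 0. Among 194 major-arm miRNAs 9 fell and 29 rose after DMSO, with a median of 0.28, and 22 fell and 30 rose after TCDD, with a median of 0.11. Among 216 star arms, the less abundant strand of a miRNA hairpin, 16 fell and 27 rose after DMSO and 29 fell and 36 rose after TCDD, with medians of 0.00 and 0.03. The medians of miRNA features lie near 0 in part by construction, since the scaling factors were taken over them.

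**Figure D3:**
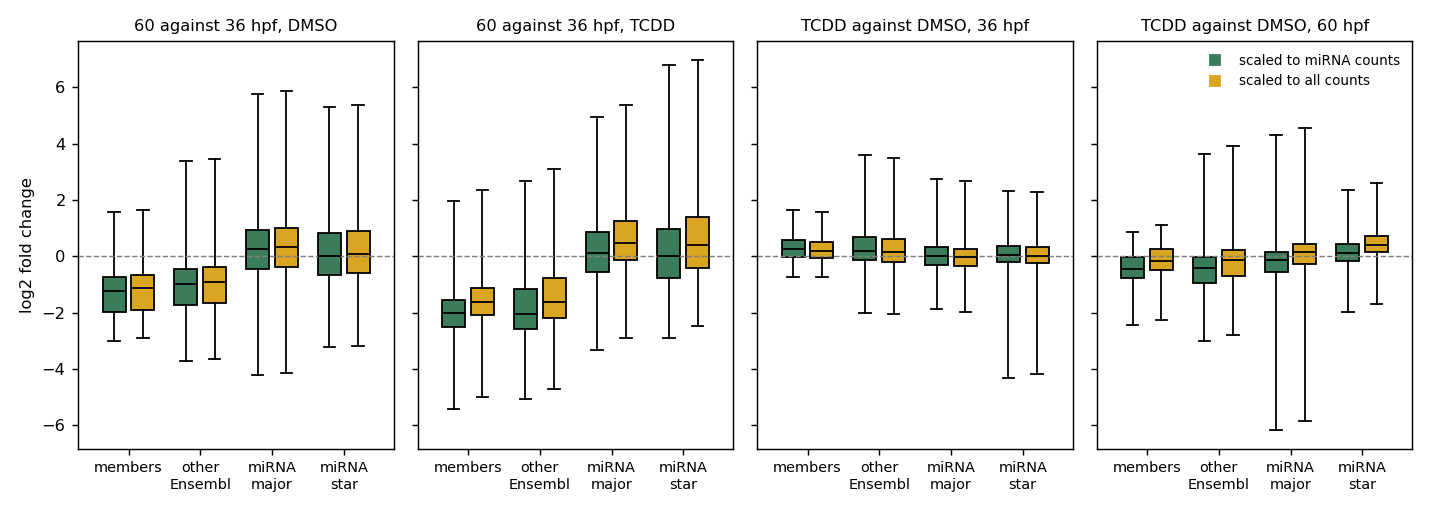
Log2 differences of single features for each comparison, by kind of feature, scaled to miRNA counts (green) and to all counts (yellow). Boxes show quartiles and whiskers the lowest and highest values. From 36 to 60 hpf the 218 rows have medians of -1.21 and -2.01 on the first scale, against 0.28 and 0.11 for major-arm miRNAs.

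Scaled to the total of all counts, 77 rows fell and 3 rose after DMSO, beside 24.6% of all features called, 16.9% as lower and 7.64% as higher. After TCDD 166 fell and 6 rose, beside 48.3% called, 35.0% as lower and 13.4% as higher. The medians of the rows were -1.12 and -1.60, and those of all features -0.54 and -0.62. Against the main fit, the median of all features thus moved by over 0.1 after TCDD but not after DMSO. The miRNA total without TMM factors, which differs from the main fit only by those factors, gave values near these. Medians were then -1.09 and -1.55 for the rows and -0.51 and -0.56 for all features. On that scale 73 rows fell and 3 rose after DMSO, beside 16.5% and 7.88% of all features. After TCDD 161 fell and 6 rose, beside 33.3% and 13.6%. With TMM factors over all features, which places the median of all features at -0.15 in both treatments, 54 rows fell and 4 rose after DMSO with a median of -0.68, beside 22.2% of all features called, 11.6% as lower and 10.6% as higher. After TCDD 117 fell and 7 rose with a median of -1.09, beside 41.5% called, 22.6% as lower and 19.0% as higher.

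Rows were also counted without regard to a test, first on CPM with TMM factors. After DMSO all 3 libraries at 60 hpf were below all 3 at 36 hpf for 149 rows and above for 4. Over all features the shares were 34.8% and 13.4%. After TCDD the counts were 194 and 2, beside 48.7% and 12.3%. Relative to all counts they were 141 and 4 after DMSO, beside 32.2% and 14.6%, and 171 and 7 after TCDD, beside 39.1% and 17.3%. At a threshold that does not depend on depth, 82 of the 218 rows reached 20 CPM in every library. Of these 82, 16 fell and 3 rose after DMSO in edgeR's test scaled to miRNA counts, beside 18.1% and 7.40% of all features. The count of falls after DMSO was thus near the share over all features. After TCDD 68 fell and 2 rose, beside 44.9% and 8.47%.

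The comparisons of times in DMSO and in TCDD share no library. The 83 rows called in both, 81 of them lower and 2 higher, made up 96.5% of the calls after DMSO and 42.3% of those after TCDD. Over all 838 features, 187 (22.3%) were called in both, out of 214 called after DMSO and 447 after TCDD. The rows' share of the calls after TCDD was thus near that over all features. Since 89.9% of the 218 rows were called after TCDD, most calls after DMSO would be shared in any case. In all, 215 rows had the same sign in both and 19 were called in neither. The difference was under -1 on the log2 scale for 126 rows after DMSO and 194 after TCDD, and under -2 for 55 and 110. It was further below 0 after TCDD for 185 rows, and the test of that difference stands with the TCDD comparisons.

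**Figure D4:**
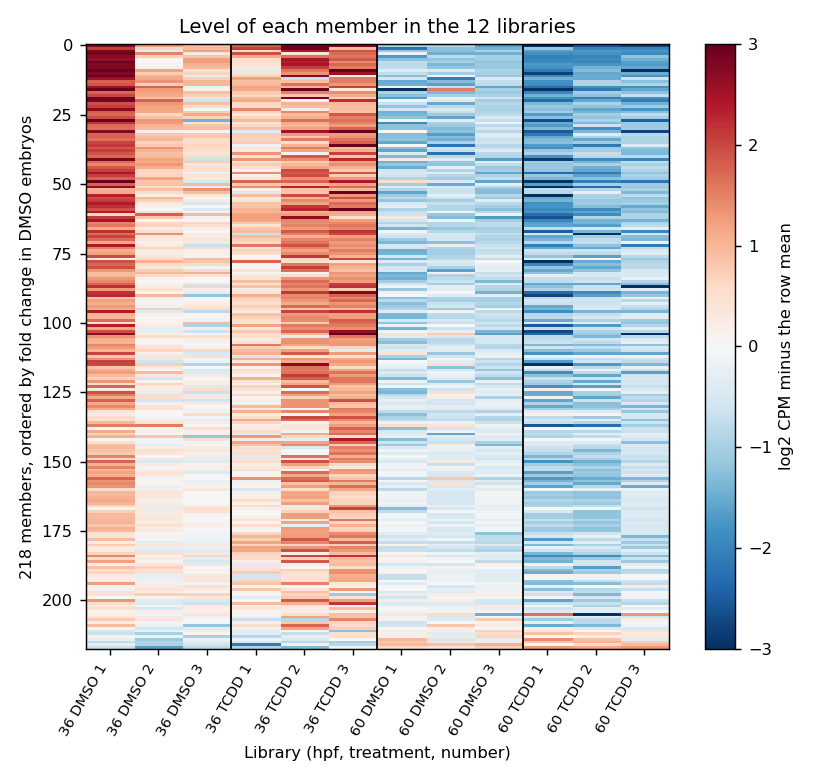
Levels of the 218 rows in the 12 libraries, as log2 CPM minus the mean of the row over libraries, with values beyond 3 in either direction drawn at that limit. Most rows are above their mean in the 6 libraries at 36 hpf and below it in the 6 at 60 hpf.

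Differences between libraries were shared by many rows. The first principal component of the rows' log2 CPM held 81.0% of the variance, and the second 4.36%. On the first, all 6 libraries at 36 hpf lay between -23.0 and -2.22 and all 6 at 60 hpf between 8.14 and 20.5. At 36 hpf the 3 shallowest libraries lay between -23.0 and -18.7 and the 3 deeper ones between -8.82 and -2.22. The part of depth in this component was not tested. Within groups, log2 CPM of the rows correlated across rows with Pearson's r of 0.834 to 0.938 between pairs of libraries, where rows are not independent replicates. The median coefficient of biological variation was 38.3% for the rows, beside 44.2% for major-arm miRNAs and 39.0% for star arms in the same abundance range.

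The largest fall among rows whose times did not overlap after DMSO was that of ENSDART00000118536, of rank 23. It had 722, 253 and 202 CPM at 36 hpf after DMSO and 354, 780 and 714 after TCDD. At 60 hpf it had 54.5, 57.4 and 33.4 after DMSO and 10.03, 17.8 and 15.5 after TCDD. The TCDD libraries at 60 hpf were all below the DMSO ones. The log2 difference between the times was -3.01 (SE 0.55) after DMSO and -5.41 (SE 0.61) after TCDD, with edgeR adjusted p of 0.00286 and 0.000746. Between TCDD and DMSO at 60 hpf it was -1.74 (SE 0.53), which did not pass edgeR's test at an adjusted p of 0.351.

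ENSDART00000119941, of rank 36, followed. It had 445, 165 and 205 CPM at 36 hpf after DMSO and 442, 939 and 200 after TCDD, then 22.6, 44.4 and 39.9, and 46.8, 26.3 and 26.7 at 60 hpf. Times were far apart and the treatments overlapped at 60 hpf. The log2 difference was -2.93 (SE 0.61) after DMSO and -3.98 (SE 0.63) after TCDD, with edgeR adjusted p of 0.00453 and 0.00172.

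Few rows rose. ENSDART00000118744, of rank 51, had 53.7, 28.1 and 49.6 CPM at 36 hpf after DMSO and 46.6, 34.7 and 81.6 after TCDD. At 60 hpf it had 131, 115 and 145 after DMSO and 212, 198 and 214 after TCDD. Every library at 60 hpf was above every one at 36 hpf, and the TCDD libraries at 60 hpf were above the DMSO ones. The log2 difference between the times was 1.58 (SE 0.38) after DMSO and 1.95 (SE 0.39) after TCDD, with edgeR adjusted p of 0.0104 and 0.00277. Between the treatments at 60 hpf it was 0.68 (SE 0.37), edgeR adjusted p 0.654.

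ENSDART00000116206, of rank 43, had 95.7, 61.0 and 77.8 CPM at 36 hpf after DMSO and 26.7, 131 and 64.3 after TCDD, then 221, 213 and 239, and 119, 175 and 227 at 60 hpf. The times did not overlap after DMSO and did after TCDD. It rose after DMSO by 1.53 (SE 0.49) on the log2 scale with an edgeR adjusted p of 0.0400. After TCDD the difference was 1.24 (SE 0.50), edgeR adjusted p 0.0524. The call after DMSO was lost without any 1 of 8 of the 12 libraries, with log2 differences of 1.28 to 1.54 over all 12 omissions, and at an edgeR adjusted p of 0.0668 with a replicate block. With a block within each treatment, the difference after TCDD was 1.46, with an edgeR adjusted p of 0.0251. Scaled to all counts it was 1.69, with an edgeR adjusted p of 0.0158.

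The third row that rose after DMSO was that of rank 8, which also rose after TCDD. It had 366, 336 and 484 CPM at 36 hpf after DMSO and 444, 347 and 302 after TCDD, then 1099, 883 and 771, and 1121, 1273 and 1052 at 60 hpf. Its levels at 60 hpf were all above those at 36 hpf, and it was the only one of the 10 most abundant rows that rose. The log2 difference was 1.21 (SE 0.30) after DMSO and 1.65 (SE 0.30) after TCDD, with edgeR adjusted p of 0.0115 and 0.00211.

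**Figure D5:**
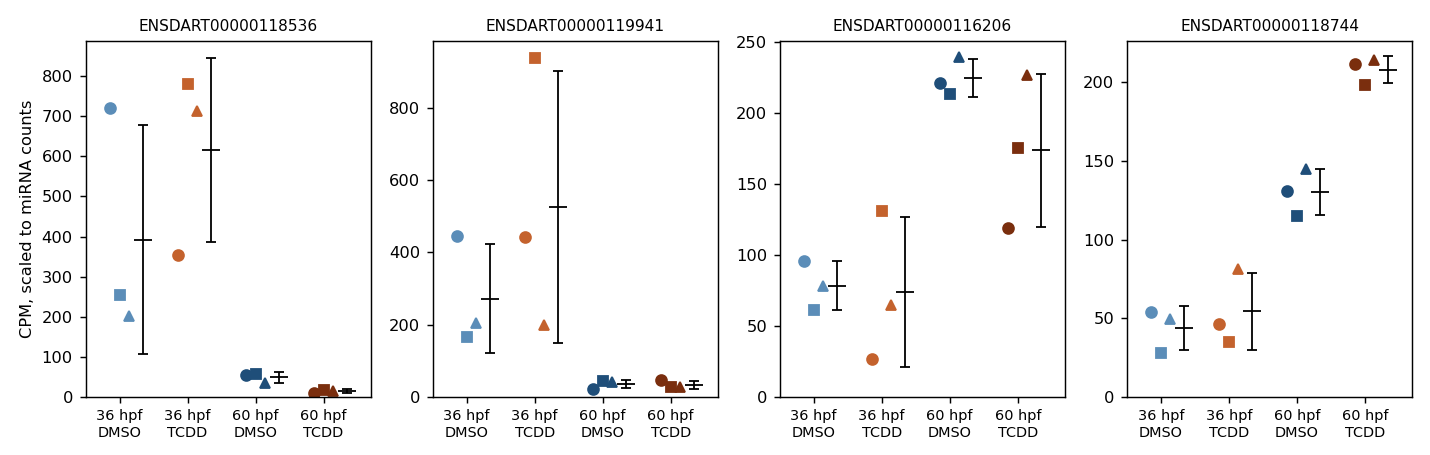
CPM of the 4 rows named by identifier in each library on a linear axis, by time and treatment, with points by library number (circle 1, square 2, triangle 3) and bars for the mean ± SD of 3. ENSDART00000118536 falls from 202 to 780 CPM at 36 hpf to 10.03 to 57.4 at 60 hpf, while ENSDART00000118744 rises from 28.1 to 81.6 to 115 to 214.

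Falls were called at all levels of abundance, but after DMSO most often among the least abundant rows. Rows were split into 4 groups from the most to the least abundant, of 55, 54, 54 and 55 rows. After DMSO 17, 20, 13 and 36 were called in either direction, beside 25.5% of all features. The group with 13 calls lay near that share, and the least abundant group stood furthest above it. Rows of the least abundant group lie nearest the count threshold, which favours rows high at 36 hpf. The part of the threshold in the calls of this group was not tested. After TCDD 45, 51, 47 and 53 were called, beside 53.3%, and every group was above that share. The median log2 differences were -1.01, -1.28, -0.85 and -1.71 after DMSO and -1.95, -1.92, -1.59 and -2.17 after TCDD.

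Some rows had nearly the same counts as others, by the sum over libraries of the squared difference over the sum. Rows were put in 1 set where that measure of alike counts was at most 12 for every pair. Counting error alone can put rows of equal level above this limit. Grouped so, the 218 rows formed 139 sets and single rows. In 30 sets with more than 1 row there were 109 rows, the other 109 stood alone, and the largest set had 11. Low spread within a set is what the grouping asked for, so whether the same reads had been counted in more than 1 row was not tested. With each set counted once, 45 of 139 fell and 3 rose after DMSO, and 118 fell and 2 rose after TCDD. No share over all features is given for that fit, so whether these counts are particular to the rows is not known.

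The 11 rows of the largest set had mean levels of 224 to 233 CPM and log2 differences between the times of -0.82 to -0.70 after DMSO, of which 0 passed, and of -1.63 to -1.51 after TCDD, all 11 of which passed edgeR's test. A set of 8 rows at 56.0 to 61.2 CPM had -1.75 to -1.38 and -1.79 to -1.64, and all 8 fell in both treatments. A set of 7 rows at 41.7 to 45.7 CPM had -0.87 to -0.70 after DMSO, with 0 called, and -1.60 to -1.26 after TCDD, with all 7 called. A set like these adds its number of rows to a count of calls for what may be 1 RNA. Over all features 18.1% were called lower after DMSO and 44.9% after TCDD.

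Alike rows lay mostly among identifiers with higher numbers. With numbers under 120000 there were 111 of the 218 rows, out of 806 Ensembl rows in that range, and 28 of them (25.2%) were in sets of alike rows. With numbers of 120000 and above there were 107 rows, out of 991, and 81 of them (75.7%) were in such sets. The lower range held 57.1% of the counts of the class and had medians of -1.36 after DMSO and -2.38 after TCDD, beside -1.03 and -1.76 in the upper one. What the number of an identifier says about a transcript was not looked at, and the medians are descriptions.

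TCDD and DMSO were compared at each time. At the level of the class the difference at 36 hpf was 0.19 on the log2 scale relative to miRNA counts, with a pooled SD of 0.56, and 0.19 as a share of all counts. Without DMSO library 1 it was 0.61 and 0.60. At 60 hpf it was -0.11 relative to miRNA counts, with a pooled SD of 0.16, and -0.13 as a share of all counts. Both were smaller than the spread between libraries, and the groups overlapped at both times. For all Ensembl rows over both times, with treatments permuted within time, the log2 difference was 0.04 relative to miRNA counts (two-sided exact permutation p 0.875, adjusted 0.91) and 0.03 as a share of all counts (p 0.91, adjusted 0.91), with TCDD lower in 3 of 6 same-numbered pairs. A p of this size does not show that the levels were alike.

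None of the 218 rows passed edgeR's test between TCDD and DMSO. At 36 hpf 0 were called, beside 0.00% of all features. An unadjusted p under 0.05 was found for 15 rows, beside 44 of all 838 features, and the smallest adjusted p was 0.127. DESeq2 called 7 and edgeR's likelihood ratio test 3 rows at this time, all higher after TCDD, and limma-voom called 0. At 60 hpf 0 were called, beside 0.239% of all features. Here 20 rows, beside 71 of all 838 features, had an unadjusted p under 0.05, and the rows' smallest adjusted p was 0.255. At 60 hpf 1 row was called lower by DESeq2 and 1 by the likelihood ratio test, limma-voom called 0, and edgeR with no expression filter called 5 as lower. For the effect over both times 0 were called, beside 0.358% of all features. An unadjusted p under 0.05 was found for 15 rows, beside 44 of all 838 features, and the rows' smallest adjusted p was 0.186. For this effect DESeq2 called 2, the likelihood ratio test 1 and limma-voom 0. The shares over all features given so far belong to edgeR's quasi-likelihood test with the filter. No such share is given for DESeq2, limma-voom, the likelihood ratio test or the fit without a filter. Whether their calls are particular to these rows is therefore not known. Scaled to all counts edgeR called 0 rows at either time and over both, beside 0.00%, 0.239% and 0.358% of all features. On that scale 14, 13 and 23 rows had an unadjusted p under 0.05, beside 40, 77 and 62 of all 838 features.

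The signs leaned in opposite directions at the 2 times. At 36 hpf the rows had a median log2 difference of 0.25 between TCDD and DMSO, and 161 were positive. Over all 838 features the median was 0.14 and 521 were positive. At 60 hpf the median of the rows was -0.45 and 165 were negative, beside -0.17 and 530 for all features. The other Ensembl rows had medians of 0.20 and -0.40, major-arm miRNAs of 0.03 and -0.12, and star arms of 0.06 and 0.11. Over both times the median of the rows was -0.15, beside -0.07 for all features.

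The size of the shift at 60 hpf moved with the scaling. TMM factors over miRNA features were 1.21 to 1.24 in the TCDD libraries at 60 hpf, 0.956 to 1.07 in the DMSO libraries at 60 hpf and 0.856 to 0.957 at 36 hpf, so they lowered the CPM of every row after TCDD at 60 hpf. Scaled to all counts the median of the rows was -0.16 at 60 hpf, beside 0.11 for all features, and 0.19 at 36 hpf. On the miRNA total without TMM factors it was -0.14 at 60 hpf, beside 0.13 for all features, and 0.19 at 36 hpf. With TMM factors the class level at 60 hpf differed by -0.41 in log2 between TCDD and DMSO, in place of -0.11. At 60 hpf, on CPM with TMM factors, 76 rows had all 3 TCDD libraries below all 3 DMSO libraries and 11 had them above. Over all features the shares were 19.0% and 7.52%. Such rows were not counted on the miRNA total without the factors. Relative to all counts the numbers were 26 and 28, beside 7.88% and 15.8%. At 36 hpf, on CPM with TMM factors, all TCDD libraries were above all DMSO libraries for 12 rows and below for 0. Over all features the shares were 4.65% and 1.19%. Relative to all counts the numbers at 36 hpf were 14 and 1, beside 4.89% and 1.67%.

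The difference between the TCDD effects at 60 and 36 hpf, which is also the difference between the falls over time in TCDD and in DMSO, passed for 0 rows in edgeR, beside 0.00% of all features. Of the rows, 33 had an unadjusted p under 0.05, beside 75 of all 838 features. Their smallest adjusted p was 0.351, and DESeq2, limma-voom and the likelihood ratio test each called 0. The median over the rows was -0.68 with 185 negative, beside -0.34 with 561 negative for all features. Scaled to all counts it was -0.36, with 0 called beside 0.00%. An unadjusted p under 0.05 was then found for 10 rows, beside 58 of all features. At the level of the class it was -0.30 relative to miRNA counts and -0.32 as a share of all counts, against a pooled SD of 0.41 and 0.40. Without DMSO library 1 at 36 hpf these were -0.72 and -0.72. More calls after TCDD than after DMSO therefore do not show that the fall differed between the treatments.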

How the data were processed

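Small RNA of whole embryos was measured in 12 libraries, made with the SREK kit and sequenced on a SOLiD V3 instrument per the labels' protocols. The authors deposited raw counts in 1 table per library, and a row missing from a table was taken as 0. All counts of a library are the sum of all its rows, every hairpin copy of a miRNA included. The submitters' processing notes name edgeR with no role. The aligner, annotation, genome build and counting rule are not stated there or in the labels, so shared reads, strand and overlap could not be settled. The rows and the comparison lists were chosen with earlier results of these data known.

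Counts were fitted with edgeR 4.0.16 in R 4.3.3 (glmQLFit, robust, 4 group means, all 12 libraries). The fit held 464 miRNA features, with hairpin copies of like total (at least 80%) counted once, and all Ensembl rows. The filter filterByExpr (minimum count 10, total 15) kept 838 features, including all 218 rows. Library size was the miRNA total (459634 to 4210840) times TMM factors over miRNA features. P-values were adjusted by Benjamini-Hochberg over the 838, with a call under 0.05, and SE is the size of the log2 difference over the root of F. CPM of single Ensembl rows carries these factors, whereas class levels per miRNA count do not. The CPM that 10 counts stand for, that of rows beside the threshold and that of the 20 CPM rule are also without them. Alternatives used DESeq2 1.42.0 and limma 3.58.1 (voom), other scalings, filters, memberships and omissions of libraries. The fit was tested on simulated counts. Named identifiers are the 2 rows called higher and the 2 called lower after DMSO with the largest difference and no overlap of times. The 5 most abundant rows are given by rank, and rank 8 was added after its values were seen.

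Replicate numbers come from the labels. Deviations from group means, correlated over the 838 features between same-numbered libraries of the 2 times, had r of 0.216, 0.156 and 0.273 in TCDD. By the rule used (all over 0.1) the numbers pair these over all features. In DMSO r was -0.08, -0.02 and 0.0983, and between treatments -0.32 to 0.05, so the rule was not met there. That does not show that those libraries share only a number. Over the rows described here alone, r was 0.022, -0.044 and -0.272 in TCDD. In DMSO it was 0.148, -0.105 and 0.411, and between treatments -0.263 to 0.125. Over these rows the rule was thus met in neither treatment, and the pairing in TCDD was seen over all features only.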

Additional observations from a re-analysis of the deposited data

Results flagged for a closer look

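For 3 rows, on CPM with TMM factors, all 3 TCDD libraries were above all 3 DMSO libraries at 36 hpf and below all 3 at 60 hpf. None passed edgeR's test of the difference between the TCDD effects. Relative to all counts, the treatments overlapped at 60 hpf for each of these rows. Their log2 effects of TCDD at 60 hpf were then -0.53, -0.36 and 0.006 for ranks 103, 105 and 163. How many of all features had this pattern was not counted.

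The row of rank 103 had 75.5, 60.2 and 63.7 CPM after DMSO and 75.9, 82.1 and 98.9 after TCDD at 36 hpf, and 47.8, 46.0 and 39.9 against 20.1, 23.9 and 31.9 at 60 hpf. The difference of the log2 effects was -1.18 (SE 0.43, edgeR adjusted p 0.434). The row of rank 105 had 58.7, 56.9 and 63.1 against 76.8, 67.9 and 111, then 46.7, 43.2 and 37.6 against 20.3, 29.2 and 31.7, a difference of -1.16 (SE 0.45, edgeR adjusted p 0.483). These 2 rows belong to the same set of alike rows and may not be separate observations.

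The row of rank 163 had 25.2, 13.6 and 11.7 CPM after DMSO and 34.5, 37.9 and 79.1 after TCDD at 36 hpf, and a mean of 13.1 ± 0.928 (SD, n = 3) after DMSO against 11.3, 11.3 and 9.74 after TCDD at 60 hpf. The difference was -1.89 (SE 0.57, edgeR adjusted p 0.351). The log2 effect of TCDD was 1.62 at 36 hpf and -0.27 at 60 hpf, and neither passed.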

How the results depend on the processing

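Class differences between the times kept their sign under every alternative run. Leaving out single libraries gave -1.27 to -0.62 after DMSO and -1.52 to -1.23 after TCDD relative to miRNA counts, and -1.31 to -0.67 and -1.56 to -1.29 as shares. With TMM factors, the TCDD values were -1.81 between the times and -0.41 for TCDD at 60 hpf. In libraries over 1500000 counts the difference between the times in TCDD, with 1 library at 36 hpf, was -0.98 and, as a share, -1.06. The difference between the TCDD effects was -0.717 to -0.0682 and -0.724 to -0.0878 over single omissions, lowest without DMSO library 1 at 36 hpf. Of the comparisons of all Ensembl rows, the paired sign flips left -1.18 and -1.23 at an adjusted exact p of 0.0625. Beside the sign-flip tests of TCDD, that was the lowest they could reach.

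Rows called between the times after DMSO numbered 86, and 46 to 104 over single omissions (46 and 56 without DMSO libraries 1 and 3 at 60 hpf). They numbered 48 with alike rows once, 42 with at least 20 counts and 19 with at least 20 CPM. The main fit, which also gave the last 2 counts, called 25.5% of all features. After TCDD they numbered 196, and 173 to 198 over single omissions, 124 with TMM over all features, 120 with alike rows once, 114 with at least 20 counts and 70 with at least 20 CPM. After TCDD the main fit called 53.3% of all features, and TMM over all features 41.5%. The rules of 20 counts and of 20 CPM, and counting alike rows once, leave fewer rows to test. For the TCDD effect 0 became 7 (DESeq2) and 3 (likelihood ratio test) at 36 hpf, and 5 (no filter), 1 (DESeq2) and 1 (likelihood ratio test) at 60 hpf. Over both times it became 2 (DESeq2), 1 (likelihood ratio test) and 1 (TMM over all features, beside 0.716% of all features). Shares over all features are not given for DESeq2, the likelihood ratio test, the fit without a filter, single omissions or alike rows once. Whether those counts moved for these rows alone is therefore not known. The cause was not tested.

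With a replicate block edgeR called 69 rows after DMSO and 185 after TCDD, and 71 and 182 with the block nested in treatment. No share over all features is given for these fits. Beside ENSDART00000116206, the block changed no call of the other named identifiers and moved no count by over 1.5 times. Beside the sign-flip tests of TCDD, the adjusted p of the sign flips between the times could not have passed. Alternatives using libraries over 1500000 counts, TMM factors for class levels, or leaving out the 5 most abundant rows were chosen after seeing the data. With 10 counts equal to 21.8 CPM in the shallowest library, depth limits what can be seen of rarer rows at 36 hpf.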
